A study of Rattus norvegicus with 2 samples.

Results

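Voltage-gated sodium and calcium channels open when the membrane is depolarised, and their genes are described here across the nuclei of the rat orbitofrontal cortex. The members were every gene of the deposited tables whose symbol begins with Scn or Cacn followed by a digit, a, b or g, with 1 γ-family gene left out, which gave 38 of 25399 genes. They comprise 14 sodium channel genes (10 α and 4 β subunits) and 24 calcium channel genes (9 pore-forming α1 subunits, 4 β subunits, 4 α2δ subunits and 7 genes of the γ family). The rule reads symbols alone, though it was chosen with earlier results of these data known. Male Sprague-Dawley rats, 8 weeks old, received methamphetamine (METH, a psychostimulant that releases dopamine) at 1 mg/kg or saline by intraperitoneal injection for 7 days. The orbitofrontal cortex of 4 animals per group was dissociated to nuclei, and 1 single-nucleus 3′ library per group was sequenced. Whether the animals' nuclei were mixed before loading is not stated in the labels, so the spread between animals cannot be seen, no test was made, and every value describes these libraries.

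The sodium α subunit forms the pore that carries the upstroke of the action potential, and the β subunits alter its gating and its place in the membrane. Calcium α1 subunits fall into L-type channels, which signal to enzymes and to the nucleus, P/Q, N and R types, which trigger transmitter release, and T types, which open near rest and support burst firing. Calcium β subunits bring the pore to the membrane, and α2δ subunits are extracellular partners that set channel number at synapses and bind gabapentin in some members. Most γ genes with brain expression encode TARPs, which are auxiliary subunits of AMPA-type glutamate receptors rather than of calcium channels.

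The METH library held 5543 barcodes with 44969322 unique molecular identifiers (UMIs, the count of distinct captured RNA molecules), and the saline library 6969 barcodes with 42221257 UMIs. After filters 5159 METH and 6509 saline nuclei remained, and the libraries shared 9 barcodes. The METH nuclei were deeper, with a median of 9407 UMIs against 6415 in excitatory neurons and 6100.5 against 4368 in inhibitory neurons. Classes and subclasses were named from marker genes, with the channel genes left out of the genes used for clustering. They comprised 2149 METH and 3497 saline excitatory neurons and 1290 and 1221 inhibitory neurons. The vascular classes held 141 and 154 endothelial and 101 and 125 mural nuclei, and the glial classes 426 and 521 astrocytes, 174 and 214 oligodendrocyte precursors and 283 and 363 oligodendrocytes. The 7 excitatory subclasses were intratelencephalic (IT) neurons of layers 2/3, 4/5 and 6, extratelencephalic (ET) neurons of layer 5, near-projecting (NP) neurons of layers 5/6 and corticothalamic (CT) neurons of layer 6. Layer 2/3 IT neurons formed 2 clusters, written by their leading genes Glis3 and Pld5. The Pld5 cluster fits the layer 2/3 name less closely, with Rorb, a layer 4/5 IT marker, also among its leading genes. Its marker level was 0.59 for layer 2/3 IT and 0.32 for layer 4/5 IT, against 0.98 for layer 2/3 IT in the Glis3 cluster. Contrasts between the 2 clusters may therefore also be between layers. The 5 interneuron subclasses were Pvalb, Sst, Vip, Lamp5 and Sncg. Levels are a gene's UMIs over the nuclei of a class in a library, divided by the class's UMIs over all genes and given in CPM, with exact 95% intervals that cover counting error only. Because counts were not divided by transcript length, each gene is compared with itself across cell types.

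In neurons no channel gene differed between the libraries by the size rule used, which asked that the METH over saline ratio and the interval bound nearest to equality both pass 1.5-fold. The rule was applied to genes that reached 100 UMIs in the 2 libraries together and 20 CPM in at least 1 of them, called measured here. In excitatory neurons 0 of 23 measured members passed, where 0.322% of all 7141 measured genes did. In inhibitory neurons 0 of 23 passed, against 0.291% of 7551 genes. The members' median log2 ratio was -0.05 in excitatory neurons, with 10 members above 0 and 13 below, and 0.05 in inhibitory neurons, with 15 above and 8 below. The medians of all measured genes were -0.01 and -0.01. In excitatory neurons the interval lay above 0 for 7 members and below 0 for 10, where 40.9% of all measured genes had an interval off 0. In inhibitory neurons it lay above 0 for 7 and below 0 for 5, where 22.0% of all did. The members' medians changed sign under an alternative each, to 0.0049 in excitatory neurons after thinning each nucleus to 1000 UMIs and to -0.03 in inhibitory neurons with nuclei matched on UMIs. Among the members reported here, excitatory log2 ratios ran from -0.34 (Cacna2d3) to 0.19 (Cacng7), and inhibitory ones from -0.32 (Scn3a, interval -0.65 to 0.01) to 0.34 (Cacng4).

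**Figure D1:**
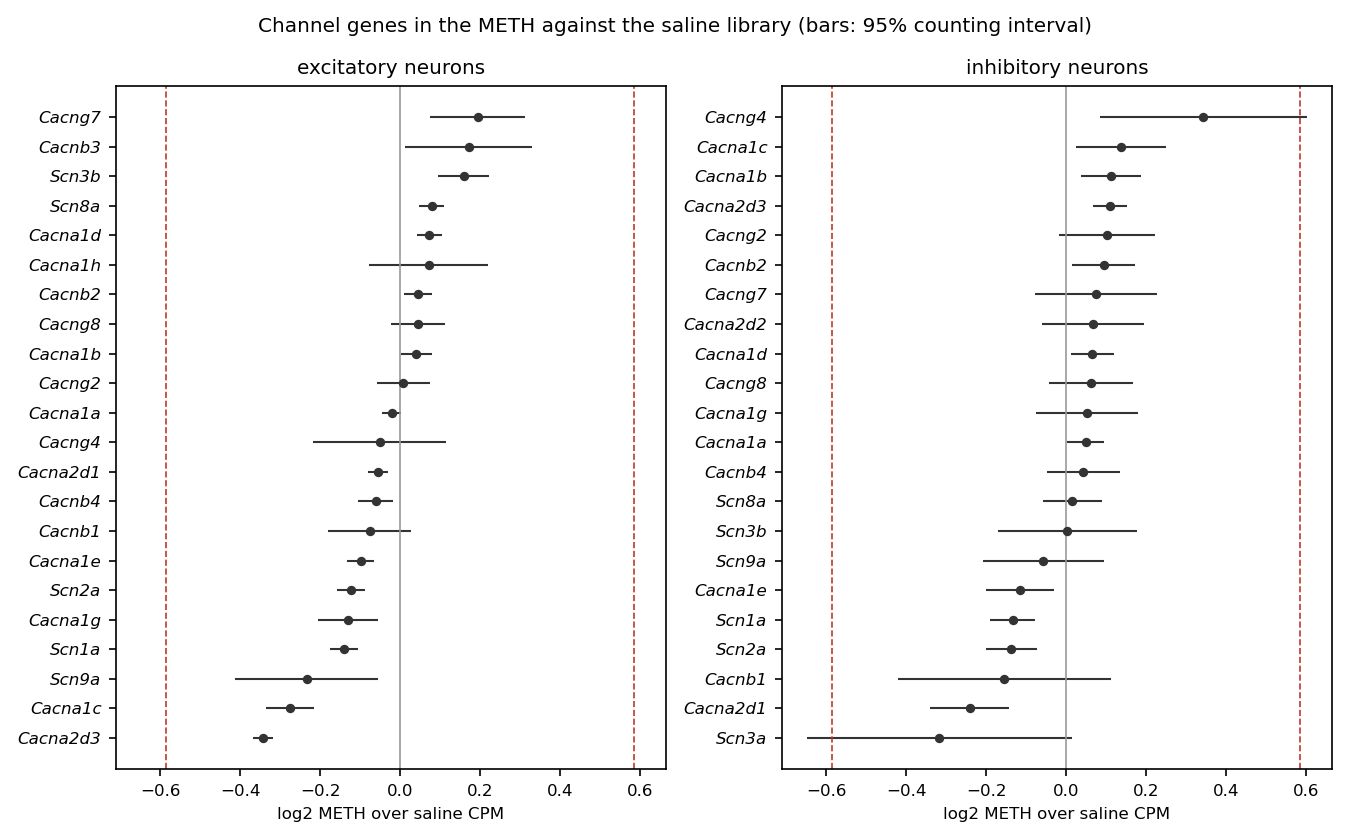
Log2 ratio of METH over saline CPM (x axis) for 22 of the channel genes measured in excitatory neurons (left) and 22 in inhibitory neurons (right), with 95% counting intervals as bars, a grey line at 0 and red dashed lines at 1.5-fold in either direction. Every point lies inside the dashed lines, from -0.34 (Cacna2d3) to 0.19 (Cacng7) in excitatory neurons and from -0.32 (Scn3a) to 0.34 (Cacng4) in inhibitory neurons.

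Many channel genes differed in level between neuron types. Of the 38 members, 29 reached 20 CPM in their highest subclass in both libraries, and 24 of these had the same highest subclass in METH and in saline. For 11 of them the interval of the highest subclass lay above that of the next in both libraries. The highest subclass exceeded the lowest at least 5-fold in both libraries for 14 members, and by under 3-fold for 7. The fold was taken against a floor of 3 UMIs where the lowest subclass held fewer. The 29 were chosen by their highest subclass, and the same counts were not made over all genes. The counts thus describe these members only. When each nucleus was thinned to 1000 UMIs, 16 of the 29 kept their highest subclass in both libraries. The others, whose highest subclass below is that of the unthinned counts, included Scn1a, Scn2a, Scn7a, Cacna1a, Cacna1b, Cacna1c, Cacna1e, Cacnb1, Cacnb3, Cacna2d4, Cacng2 and Cacng7.

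**Figure D2:**
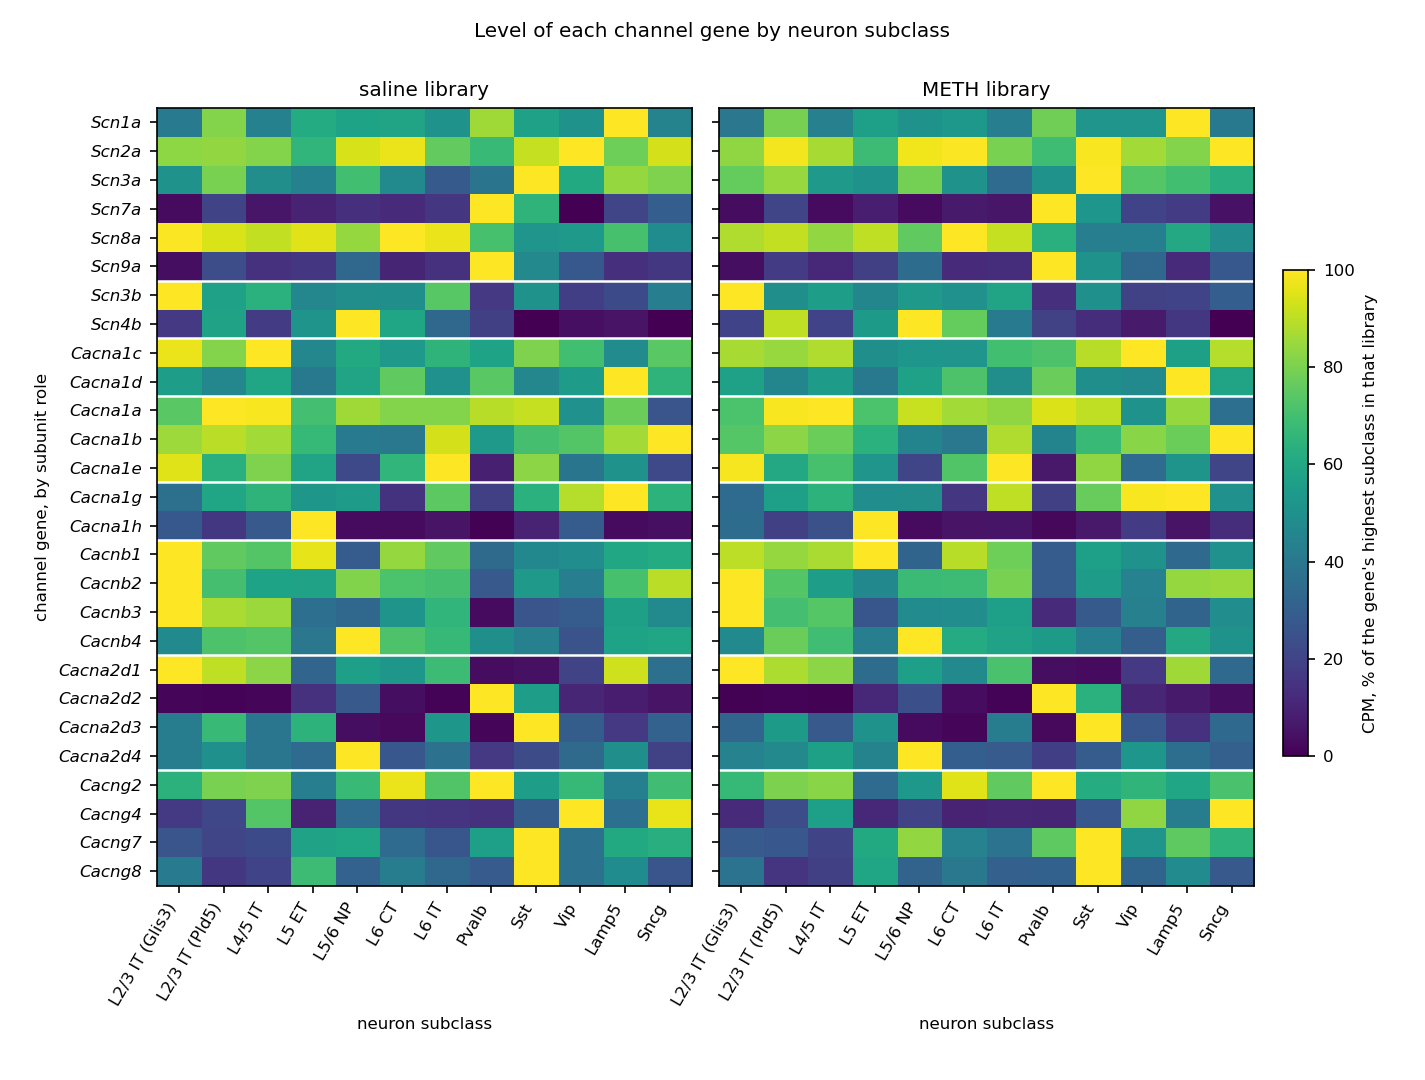
Level of 27 of the channel genes that reached 20 CPM in both libraries (rows, grouped by subunit role, white lines between roles) in 12 neuron subclasses (columns) of the saline library (left) and the METH library (right), as a percent of that gene's CPM in its highest subclass of the same library. Cacna2d2 and Scn9a are brightest in Pvalb, Cacna2d3 and Cacng8 in Sst and Cacna1h in L5 ET neurons in both panels.

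Among sodium α subunits, Scn1a, the channel of fast-spiking interneuron axons, was highest in Lamp5 interneurons, at 1084 CPM in METH and 1098 in saline. Pvalb interneurons followed among the interneurons at 850 and 940 CPM, while Sncg interneurons stood at 437 and 490. Among excitatory subclasses the Pld5 cluster was highest, at 860 and 893 CPM, and the Glis3 cluster stood at 430 and 448, near Sncg at the bottom of the order. Scn2a, which serves the initial segment and dendrites of projection neurons, varied least of the 29 members at 20 CPM or more, 1.46-fold between its highest and lowest subclass in METH and 1.52-fold in saline. Scn8a, the main channel of the distal initial segment and of nodes of Ranvier, had 812 and 711 CPM in L6 CT neurons against 347 and 371 in Sst interneurons. All 7 excitatory subclasses lay above all 5 interneuron subclasses for Scn8a in both libraries.

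The balance of these genes, in which transcript length cancels between subclasses, separated interneuron types from each other. The ratio of Scn1a to Scn2a UMIs was 1.94 (interval 1.81 to 2.08) in METH and 1.93 (1.79 to 2.09) in saline Pvalb interneurons, and 2.10 and 1.95 in Lamp5 interneurons. It was 0.69 and 0.72 in Sncg and 0.90 and 0.95 in Sst interneurons. Pvalb and Lamp5 thus stood apart from Sst and Sncg in both libraries by more than counting error. The Glis3 and Pld5 clusters also differed, at 0.81 and 0.75 against 1.38 and 1.48. Scn8a over Scn2a was lowest in Sst, Vip and Sncg interneurons, at 0.51 to 0.64 over both libraries, and highest in L5 ET neurons, at 1.69 and 1.42.

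Between the libraries, Scn1a and Scn2a had small ratios below 0 and Scn8a one above 0 in excitatory neurons. Scn1a stood at 520 CPM in METH and 573 in saline (log2 ratio -0.14, interval -0.18 to -0.11), Scn2a at 539 and 587 (-0.12, -0.16 to -0.09) and Scn8a at 714 and 676 (0.08, 0.05 to 0.11). The Scn8a to Scn2a ratio was therefore 1.32 (1.29 to 1.36) in METH and 1.15 (1.13 to 1.18) in saline. With each nucleus thinned to 1000 UMIs, the log2 ratios of Scn8a and Scn2a came to 0.02 and -0.08. In inhibitory neurons Scn1a was at 697 and 765 CPM (-0.13), Scn2a at 537 and 591 (-0.14) and Scn8a at 430 and 426 (0.01). Scn1a and Scn2a were each below 0 in 11 of 12 subclasses. Over all 2374 genes measured in every subclass, 12.26% fell on 1 side in at least 11, and 3 of 16 members did so. The subclasses share the same 2 libraries, so their directions are not independent.

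Scn9a and Scn7a peaked in Pvalb interneurons, and Scn3a was low. Scn9a, best known from pain-sensing neurons, was highest in Pvalb interneurons (172 and 185 CPM), with 88.3 and 86.8 in Sst and 6.23 and 6.56 in the Glis3 cluster of layer 2/3. The gap between Pvalb and the next subclass exceeded counting error in both libraries. Scn7a, which encodes a sodium-level sensor, was also highest in Pvalb, at 22.4 and 23.3 CPM. RefSeq lists Scn1a, Scn9a and Scn7a next to each other on rat chromosome 3, and of these Scn9a and Scn7a were highest in Pvalb and Scn1a in Lamp5 interneurons. After thinning the METH value of Scn7a was highest in Sst interneurons and that of Scn1a in the Pld5 cluster. Scn3a, the α subunit of the embryonic brain, reached at most 26.8 and 34.7 CPM among the neuron subclasses, in Sst interneurons.

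**Figure D3:**
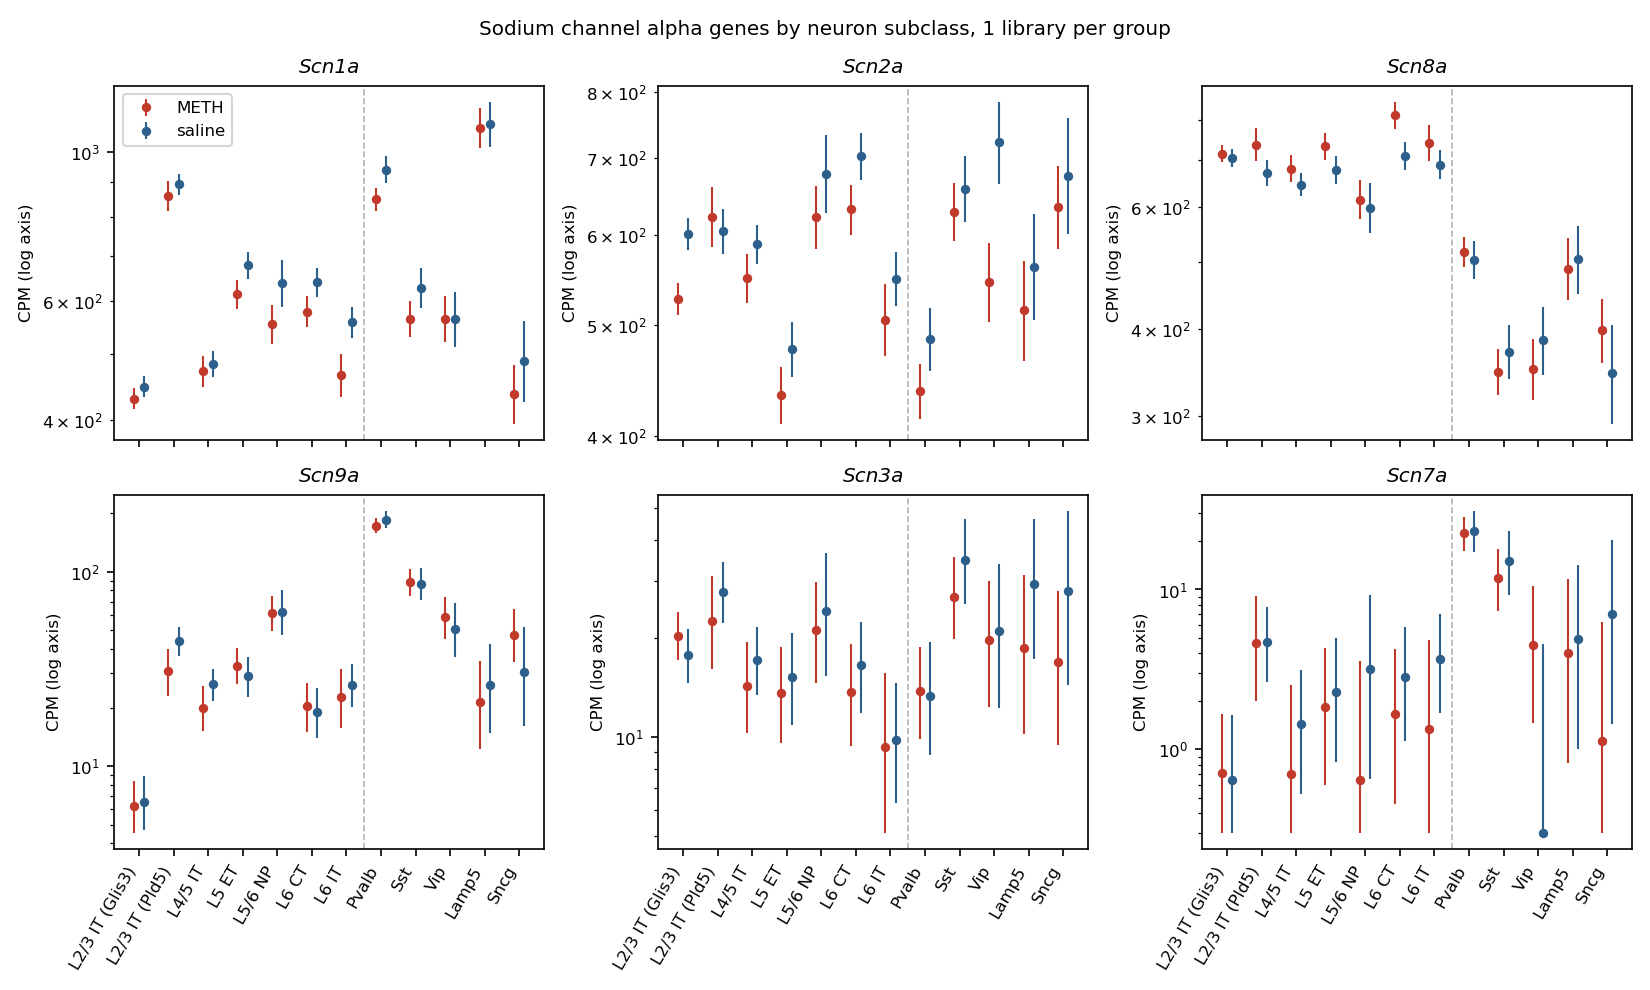
CPM on a log axis of 6 sodium channel α genes in 12 neuron subclasses, with METH in red, saline in blue and 95% Poisson intervals as bars. The dashed line separates excitatory from interneuron subclasses, and values or bounds under 0.3 CPM are drawn at 0.3. Scn2a is nearly level across subclasses, Scn8a is lower to the right of the line, and Scn9a and Scn7a peak in Pvalb, at 172 and 185 CPM and at 22.4 and 23.3.

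Sodium β genes differed in where they were highest. Scn3b was highest in the Glis3 cluster of layer 2/3, at 273 and 239 CPM, and lowest in Pvalb interneurons, at 37.6 and 40.1. Scn4b, linked to the resurgent current of fast-firing cells, reached only 24.4 and 31.7 CPM, in L5/6 NP neurons.

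Of the 4 L-type calcium channel genes, Cacna1c and Cacna1d passed 100 CPM in every neuron subclass. Cacna1d, whose channel opens at more negative voltages than that of Cacna1c, was highest in Lamp5 interneurons at 1252 and 1187 CPM and lowest in L5 ET neurons at 507 and 480. Lamp5 exceeded the next subclass by more than counting error in both libraries. Cacna1c, the main L-type gene of heart and brain, spanned 119 to 240 CPM over the subclasses in METH and 125 to 269 in saline. In excitatory neurons Cacna1c stood at 174 CPM in METH and 211 in saline (log2 ratio -0.28, -0.34 to -0.22), and in inhibitory neurons at 195 and 177 (0.14, 0.03 to 0.25). Its ratio was below 0 in all 7 excitatory subclasses, from -0.07 to -0.38. Cacna1d was at 712 and 677 CPM in excitatory (0.07) and 818 and 781 in inhibitory neurons (0.07).

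The P/Q, N and R-type genes, which supply presynaptic calcium, divided the interneurons. Cacna1a (P/Q) was at 1106 and 1123 CPM in excitatory and 1049 and 1015 in inhibitory neurons, and lowest in Sncg interneurons at 475 and 340. Cacna1b (N) stood at 667 and 576 CPM in the same Sncg interneurons, at the top of its order but not apart from L6 IT neurons at 588 and 539 in both libraries. The ratio of Cacna1a to Cacna1b UMIs was accordingly 0.71 (0.63 to 0.81) and 0.59 (0.48 to 0.73) in Sncg, against 4.09 and 3.71 in Pvalb and 4.20 and 4.56 in L6 CT neurons. The Sncg value was the lowest of the 12 subclasses in both libraries, apart from the next, Vip at 1.21 and 1.55, by more than counting error. Cacna1e (R) was highest in L6 IT neurons at 762 and 797 CPM and lowest in Pvalb interneurons at 53.1 and 71.3, which were 14.4-fold and 11.2-fold lower. Sst interneurons, at 637 and 659 CPM, lay far above Pvalb for Cacna1e.

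Between the libraries these presynaptic genes differed little. Cacna1e stood at 593 and 635 CPM in excitatory (-0.10, -0.13 to -0.07) and 310 and 336 in inhibitory neurons (-0.12), and was below 0 in 11 of 12 subclasses. Cacna1b was at 462 and 449 CPM in excitatory (0.04) and 428 and 396 in inhibitory neurons (0.11, 0.04 to 0.19). The Cacna1a ratios were -0.02 and 0.05, and its largest subclass value was 0.48 (0.21 to 0.76) in Sncg interneurons, on 421 and 146 UMIs.

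T-type genes marked different projection and local cells. Cacna1g was highest in Lamp5 interneurons at 256 and 255 CPM, close to Vip at 253 and 227, and lowest in L6 CT neurons at 40.3 and 37.5. L6 IT neurons of the same layer held 231 and 191 CPM. Cacna1h was highest in L5 ET neurons, at 103 and 116 CPM, apart from the next subclass by its interval in both libraries. L5/6 NP neurons, which neighbour them in depth, held 3.21 and 3.17 CPM of Cacna1h. Class ratios were -0.13 and 0.05 for Cacna1g in excitatory and inhibitory neurons and 0.07 for Cacna1h in excitatory neurons.

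The calcium β genes were broad, with Pvalb interneurons near the bottom for 3 of them. Cacnb4, the brain β subunit whose loss underlies the lethargic mouse, was highest in L5/6 NP neurons at 591 and 589 CPM, above the next subclass by more than counting error. Cacnb2 was highest in the Glis3 cluster of layer 2/3 at 775 and 764 CPM and lowest in Pvalb at 225 and 214. Cacnb1 was at 61.7 and 65.1 CPM in excitatory and 31.8 and 35.4 in inhibitory neurons, and at 21.4 and 26.2 in Pvalb. Cacnb3 was at 28.8 and 25.6 CPM in excitatory neurons and at 5.17 and 0.990 in Pvalb. The ratios of the β genes in excitatory neurons ran from -0.08 (Cacnb1) to 0.17 (Cacnb3), and in inhibitory neurons from -0.16 (Cacnb1) to 0.09 (Cacnb2).

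The α2δ genes differed widely between neuron types. Cacna2d1, the principal gabapentin receptor, stood at 1400 and 1434 CPM in the Glis3 cluster of layer 2/3 and at 1203 and 1329 in Lamp5 interneurons. It was at 51.0 and 49.0 CPM in Pvalb and 42.8 and 64.2 in Sst. Cacna2d2, also a gabapentin receptor, was instead highest in Pvalb among the subclasses, with 241 and 229 CPM in Pvalb, 154 and 128 in Sst and 17.3 and 17.9 in Lamp5. In the 4 IT subclasses Cacna2d2 stayed between 1.05 and 2.87 CPM. Cacna2d3 was highest in Sst interneurons at 3482 and 3224 CPM, followed by the Pld5 cluster at 1898 and 2187 and L5 ET neurons at 1787 and 2087. It was low at 57.7 and 77.5 CPM in L6 CT, 95.8 and 114 in L5/6 NP and 89.9 and 57.9 in Pvalb. Cacna2d4, known from the retina, was highest in L5/6 NP neurons at 44.4 and 35.9 CPM.

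Among thinned nuclei Cacna2d3 was found in 90.0% of METH and 86.8% of saline Sst nuclei (98.6% and 97.5% unthinned). The thinned shares were 4.63% and 5.26% in Pvalb, 5.42% and 6.56% in L6 CT and 3.93% and 7.10% in oligodendrocytes, whose level was 70.6 and 92.9 CPM. The low neuron types were thus near the share found in oligodendrocytes, and the Sst share was far above it. A pair of interneuron clusters left without a subclass name, led by Pappa2 and by Brinp3, also held high Cacna2d3, at 2660 and 2502 CPM and at 1952 and 1529 CPM.

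**Figure D4:**
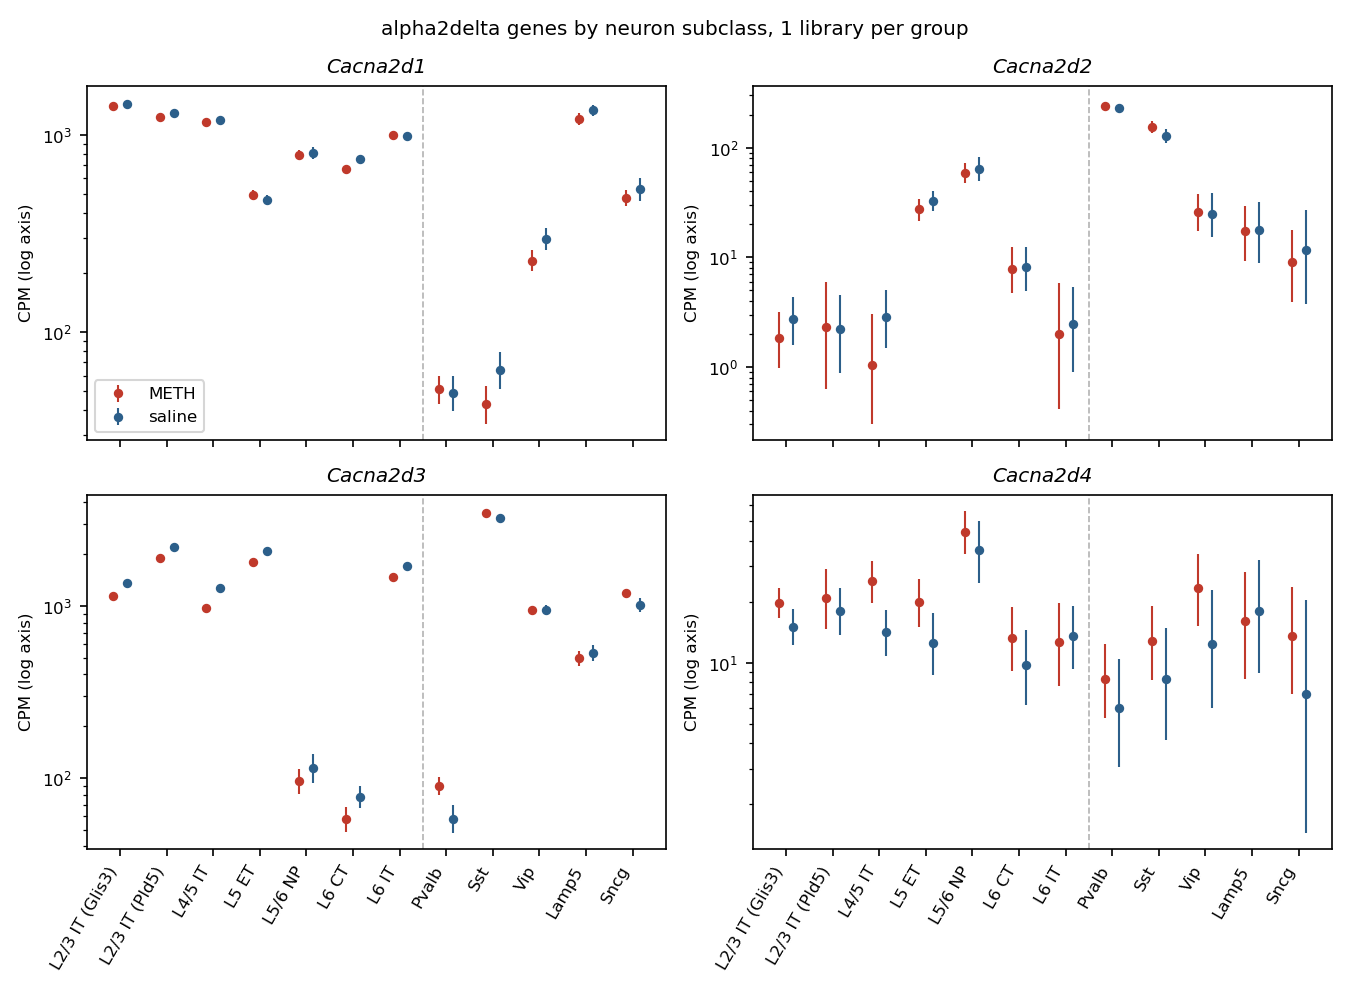
CPM on a log axis of the 4 α2δ genes in 12 neuron subclasses, with METH in red, saline in blue and 95% Poisson intervals as bars; the dashed line separates excitatory from interneuron subclasses, and values or bounds under 0.3 CPM are drawn at 0.3. Cacna2d1 and Cacna2d3 differ in order, with Sst at 42.8 and 64.2 CPM for the first and at 3482 and 3224 for the other, and Cacna2d2 is highest in Pvalb.

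The start regions of Cacna2d2 and Cacna2d3 are shown as examples of α2δ genes whose subclass orders differ while their base composition is alike. Each covers 250 bases before to 50 after the annotated start in RefSeq (build GRCr8), 5′ to 3′ on the gene's strand, with each GGGCGG box, or its reverse complement, in capitals. Cacna2d2 lies at chr8:116950856-116951155 on the plus strand, with 77% GC, and Cacna2d3 at chr16:4918850-4919149 on the minus strand, with 79.33% GC.
Cacna2d2: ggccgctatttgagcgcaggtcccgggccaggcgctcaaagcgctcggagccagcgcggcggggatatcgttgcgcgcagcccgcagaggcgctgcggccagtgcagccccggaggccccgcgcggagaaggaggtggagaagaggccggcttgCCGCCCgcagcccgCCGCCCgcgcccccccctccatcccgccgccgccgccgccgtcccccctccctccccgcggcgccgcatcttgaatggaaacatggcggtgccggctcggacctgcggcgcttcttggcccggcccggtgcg
Cacna2d3: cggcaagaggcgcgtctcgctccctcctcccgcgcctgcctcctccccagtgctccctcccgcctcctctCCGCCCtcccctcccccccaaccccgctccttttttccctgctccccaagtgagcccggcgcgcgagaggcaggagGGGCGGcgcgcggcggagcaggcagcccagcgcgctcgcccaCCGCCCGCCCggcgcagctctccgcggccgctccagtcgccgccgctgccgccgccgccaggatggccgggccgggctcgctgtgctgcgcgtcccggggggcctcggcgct
The median GC content of all 33469 start regions of this length was 51.7%. Start regions were matched for 26 of the 38 members, 29 regions in all. These are not all separate, since Cacna2d1 and Cacnb2 have more than 1 region each. The regions of Cacna2d1 overlap, and each holds the GGGCGG box, so the same sequence is counted more than once. The GGGCGG box, searched on both strands, was in 15 of these 29, against 33.06% of all regions, TATAAA was in 2 of 29, against 14.22%, and TGACGTCA was in 0 of 29, against 1.829%. None of these motifs contains another, and a match describes the sequence only.

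Between the libraries Cacna2d3 had a ratio below 0 in every excitatory subclass and none past 1.5-fold. In excitatory neurons as a whole it stood at 1032 CPM in METH and 1309 in saline (log2 ratio -0.34, interval -0.37 to -0.32). It was found in 51.0% of METH and 59.6% of saline excitatory nuclei after thinning, and in 81.3% and 85.3% without it. Subclass ratios ran from -0.20 in the Pld5 cluster to -0.43 in L6 CT neurons. The subclass make-up of the 2 libraries differed, and with neuron subclasses weighted alike the excitatory ratio was -0.24. In inhibitory neurons Cacna2d3 stood at 1340 and 1242 CPM (0.11, 0.07 to 0.15), with 0.11 (0.05 to 0.17) in Sst and 0.23 in Sncg. Matched on UMIs, the Sst ratio was -0.02. The difference between excitatory and inhibitory ratios was not tested, since each group is 1 library.

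**Figure D5:**
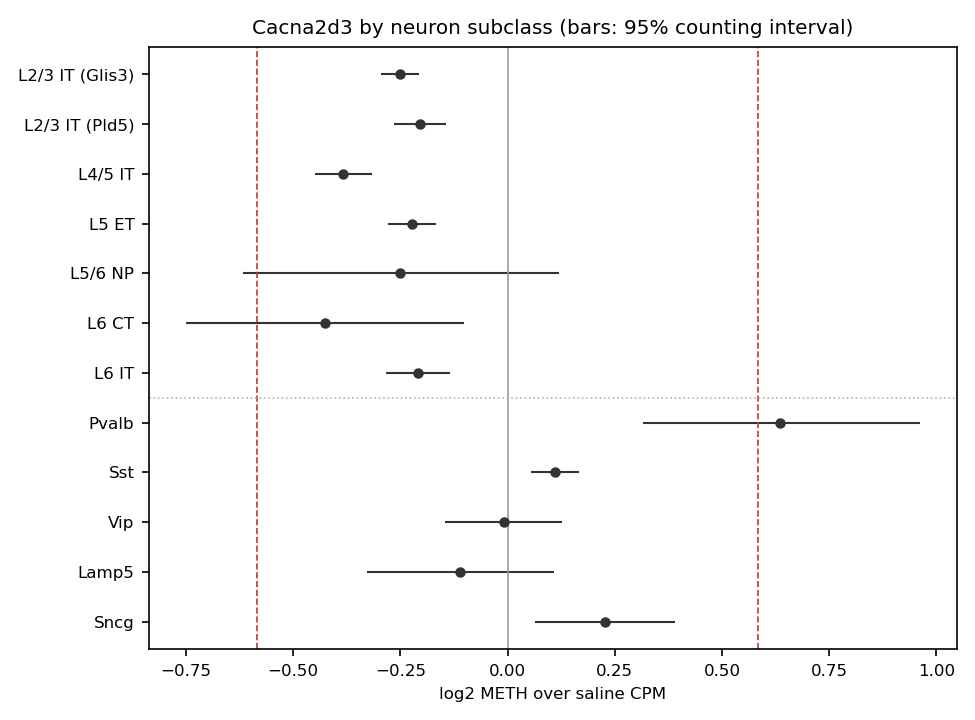
Log2 ratio of METH over saline CPM of Cacna2d3 (x axis) in each of 12 neuron subclasses, with 95% counting intervals as bars, a grey line at 0, red dashed lines at 1.5-fold and a dotted line between excitatory subclasses (above) and interneurons (below). The 7 excitatory points lie between -0.43 and -0.20, and the Pvalb point stands at 0.64 with a bar that reaches down to 0.32.

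Pvalb interneurons had the highest ratio, with Cacna2d3 at 89.9 CPM in METH and 57.9 in saline (log2 ratio 0.64, 0.32 to 0.96) on 261 and 117 UMIs. Few nuclei carried these UMIs: 6 of 389 METH and 2 of 380 saline Pvalb nuclei held at least 10. The highest nucleus held 26.8% of the METH UMIs, and a smaller share in saline, and without it in each library the ratio was 0.37 (0.02 to 0.73). Shares of Pvalb nuclei with any Cacna2d3 UMI were 16.5% and 18.7%. The ratio was 0.15 with equal weight per nucleus, -0.56 with nuclei matched on UMIs, -0.09 after thinning and -0.19 without doublet removal. The summed Sst marker genes in Pvalb nuclei stood at 91.7 CPM in METH and 70.3 in saline (log2 ratio 0.38, 0.08 to 0.69). The other marker sums there were at 0.41 (Vip, -0.06 to 0.90), 0.01 (excitatory), -0.05 (Lamp5), -0.21 (Sncg) and -0.12 (Pvalb). The part of any of these in the result was not tested. Cacna2d1 had class ratios of -0.06 in excitatory and -0.24 (-0.34 to -0.14) in inhibitory neurons, and Cacna2d2 one of 0.07 in inhibitory neurons. Cacna2d4 in L4/5 IT neurons stood at 25.2 and 14.1 CPM on 72 and 59 UMIs (0.84, 0.32 to 1.36), and at 0.07 after thinning.

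TARP genes were spread over neurons and glial precursors. Cacng8, an AMPA receptor partner abundant in hippocampus and cortex, was highest in Sst interneurons at 421 and 400 CPM, with L5 ET neurons next at 249 and 274. Sst exceeded ET by more than counting error in both libraries. Cacng2, which encodes stargazin, ran from 225 and 215 CPM in Pvalb to 79.0 and 92.1 in L5 ET neurons. Cacng7 was highest in Sst at 133 and 145 CPM and lowest in L4/5 IT neurons and the Pld5 cluster, at 27.3 and 30.3 CPM in METH and saline. Among neuron subclasses Cacng4 was highest in Sncg and Vip interneurons, at 113 and 81.6 CPM and at 94.2 and 84.4. In excitatory neurons Cacng7 had a ratio of 0.19 (0.07 to 0.31), and in inhibitory neurons Cacng4 stood at 41.2 and 32.5 CPM (0.34, 0.08 to 0.60). Subclass make-up differed between the libraries, with 237 METH and 212 saline L5/6 NP nuclei but 176 and 498 in the Pld5 cluster. Sncg interneurons numbered 121 and 82. By subclass the Cacng7 ratio was above 0 in 7 and below 0 in 5, from -0.26 to 0.38.

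In the 12 subclasses together, 246 pairs of member and subclass were measured and 0 passed the size rule, where 0.244% of all gene and subclass pairs did. The interval lay above 0 for 27 pairs and below 0 for 41. Over all measured genes the share with an interval off 0 ran from 11.1% in Lamp5 to 24.9% in the Glis3 cluster. Intervals narrow as UMIs rise, and the members were not set against genes of like UMIs, so these counts are not read as a difference from other genes. Regardless of interval, 3 pairs lay past 1.5-fold, Cacna2d4 in L4/5 IT and Cacna2d3 in Pvalb among them. The 9 members under 20 CPM in every compared class and subclass were Scn4a (skeletal muscle), Scn10a and Scn11a (sensory ganglia), Scn2b, Cacna1f (retina), Cacna1s (skeletal muscle), Cacng1, Cacng5 and Cacng6. Among the classes their highest value was 11.5 CPM, for Scn2b, so no comparison was made for them.

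Outside neurons a few members stood near or above their level in excitatory neurons. The sum of 5 excitatory marker genes, taken as a measure of excitatory RNA in other classes, was at 5.73% of their excitatory level in METH and 9.83% in saline astrocytes. Cacna2d3 in astrocytes stood at 1091 and 1279 CPM, which were 106% and 97.7% of its excitatory level, and was found in 64.5% and 71.5% of thinned astrocyte nuclei (85.9% and 87.3% unthinned). Cacnb1 there stood at 71.2 and 51.4 CPM, or 115% and 79.0% of its excitatory level. Cacng4 in oligodendrocyte precursors reached 558 and 488 CPM, or 2267% and 1915% of its excitatory level, in 42.4% and 39.3% of thinned nuclei (69.5% and 64.0% unthinned). It was at 90.0 and 59.2 CPM in astrocytes and at 4.41 and 3.10 in mature oligodendrocytes. Cacng7 was also higher in precursors than in excitatory neurons, at 98.2 and 80.4 CPM, but below inhibitory neurons at 105 and 99.3. Precursors held 450 and 436 CPM of Cacna1e, 75.9% and 68.7% of the excitatory level, while their summed excitatory markers were at 5.91% and 8.58%. In vessels, Cacna1c stood at 338 and 395 CPM in mural nuclei, the contractile cells of the vessel wall, and Cacnb2 at 547 and 694 in endothelial and 608 and 714 in mural nuclei. The mural class carried excitatory markers at 35.2% and 49.2% of the excitatory level, so its other channel values were not read as its own.

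In glial and vascular classes 1 member passed the size rule. Scn1a in oligodendrocytes stood at 54.4 CPM in METH and 124 in saline on 37 and 80 UMIs (log2 ratio -1.19, interval -1.79 to -0.61), as 1 of 6 measured members, where 0.853% of 2579 genes passed. The summed excitatory markers were also lower in METH, at 138 CPM against 255 in saline oligodendrocytes (-0.89). The summed inhibitory markers were at 82.3 and 61.9 CPM (0.41, -0.20 to 1.03). The part of either in the result was not tested. Within oligodendrocytes the other members were at -0.09 (Scn2a), -0.40 (Cacna1a and Cacna2d3), 0.01 (Cacna2d1) and 0.65 (Cacna1d, 0.10 to 1.21). The Cacna1d value was 0.30 without its highest nucleus and -0.56 without doublet removal. The Scn1a call was lost at Leiden resolution 2 (-1.07), with edgeR TMM scaling (-1.01), with at least 1000 genes per nucleus (-1.13), at no more than 1% mitochondrial UMIs (-1.14), with matched nuclei (-1.06) and after thinning (-1.27), each time in the same direction.

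In astrocytes 0 of 12 measured members passed, against 0.772% of 4663 genes, with 2 above 0 and 10 below. Their median log2 ratio was -0.42, where that of all genes was -0.07. It was -0.17 with nuclei matched on UMIs (10 members measured), -0.22 without doublet removal (13) and -0.23 at a minimum of 1000 genes (11). At no more than 1% mitochondrial UMIs it was -0.26 (12) and after thinning -0.26 (5). These medians thus partly cover other members. The median was -0.42 at Leiden resolution 2 and with members among the variable genes, -0.325 with TMM scaling, -0.32 with equal weight per nucleus and -0.47 at 30 UMIs without a CPM minimum. Scn1a in astrocytes lay just outside the rule at 38.6 and 80.1 CPM (-1.05, -1.60 to -0.53), followed by Cacna2d1 at 87.4 and 147 CPM (-0.75, -1.12 to -0.39). Without doublet removal these ratios were -0.51 and -0.22. Cacng4 (0.60, 0.15 to 1.07) and Cacnb1 (71.2 and 51.4 CPM on 83 and 59 UMIs) lay on the other side. Cacna2d3 was at -0.23 (-0.34 to -0.12). The excitatory markers in astrocytes were at 147 and 251 CPM (-0.78, -1.06 to -0.50). The summed inhibitory markers were at 51.4 and 48.8 CPM (0.08, -0.47 to 0.63). The part of either in these ratios was not tested. In oligodendrocyte precursors 0 of 12 members passed, against 0.0860% of genes, with a median of 0.02. In endothelial nuclei 0 of 1 passed, against 0.526%, with Cacnb2 at -0.34 (-0.75 to 0.06). In mural nuclei 0 of 9 passed, against 2.10%, with 8 below 0 and a median of -0.23. Excitatory markers there were at -0.48 and inhibitory markers at -0.95.

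Of the listed partners and regulators of these channels (43 of 44 in the tables), 0 of 34 measured passed the size rule in excitatory and 0 of 34 in inhibitory neurons, against the 0.322% and 0.291% of all genes given above. In excitatory neurons 13 lay above 0 and 21 below, and in inhibitory neurons 9 above and 25 below, where 54.0% and 52.5% of all measured genes lay below 0. Ryr1, a calcium release channel of the endoplasmic reticulum, had the largest excitatory ratio, at 36.0 CPM in METH and 23.9 in saline (log2 ratio 0.59, 0.44 to 0.75), followed by the plasma membrane calcium pump Atp2b4 at 145 and 114 (0.34). On the other side were Calm2, which encodes calmodulin, at -0.19 and the reticulum calcium pump Atp2a2 at -0.17. In inhibitory neurons Atp2a2 stood at 297 and 369 CPM (-0.31, -0.40 to -0.23) and Calm2 at 91.9 and 112 (-0.29), with Unc79 at 0.16 and Nedd4l, a ubiquitin ligase of sodium channels, at 0.10. Ank3 and Nfasc, which anchor sodium channels at the axon initial segment, were the 2 of 26 measured partners that passed the rule in astrocytes, where 0.772% of all genes did, at 55.7 and 117 CPM (-1.07) and at 65.2 and 139 (-1.09). Beside them stand the astrocytes' excitatory and inhibitory marker values above, whose part was not tested. In excitatory neurons the ratios of Ank3 and Nfasc were 0.02 and 0.01.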

How the data were processed

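Nuclear RNA of the orbitofrontal cortex was measured in 2 single-nucleus 3′ libraries. The authors deposited raw UMI counts per gene and barcode, which per the file headers come from Cell Ranger 7.0.0. Gene identifiers are rat Ensembl, although the submitters' processing notes name the build hg38, and the annotation release is not stated there. Nuclei were kept from 500 detected genes upward and up to 5% mitochondrial UMIs, and Scrublet doublets (expected rate 0.06) were removed with scanpy 1.11.5: 328 METH (5.98%) and 401 saline (5.80%). Clustering used 2000 variable genes without the members, 30 principal components, 15 neighbours and Leiden resolution 1, then 0.5 within neurons. Clusters were named from fixed markers, at a level of 0.4 of the highest cluster and a lead of 0.15 for subclasses. These thresholds were chosen with the clusters' marker levels in view, but before any library comparison. Comparison needed 50 nuclei of a class in each library. Intervals are exact conditional binomial (ratios), Poisson (levels) and Clopper-Pearson (shares) at 95%, and cover counting error only. The rule for size was also run on Poisson counts simulated from class means. These hold counting error only, so the run cannot show how the rule behaves under spread between nuclei or animals. Members, lists and alternatives were chosen with earlier results of these data known. Named genes were the members past the size rule, those with 20 CPM in any class in both libraries at their highest and other main classes, and partners past the rule or with the 2 largest ratios per direction in neurons. 1 gene of the γ family and 2 members, which stay in the counts, are not reported here.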

Additional observations from a re-analysis of the deposited data

Results flagged for a closer look

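Cacna2d3 had ratios of opposite sign in Pvalb interneurons and in excitatory neurons. The log2 ratio of METH over saline was 0.6354 in Pvalb, -0.2507 in the Glis3 cluster of layer 2/3 and -0.3828 in L4/5 IT neurons, each with an interval on its own side of 0. The difference between these subclasses was not tested, since each group is 1 library. The Pvalb value rests on few nuclei, with at least 10 UMIs in 6 METH and 2 saline nuclei, and lay below 0 with nuclei matched on UMIs (-0.56), after thinning (-0.09) and without doublet removal (-0.19).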

How the results depend on the processing

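No paired analysis was possible because each group is 1 library. The counts of 0 members past the size rule in excitatory and inhibitory neurons, oligodendrocyte precursors, endothelial nuclei and mural nuclei stayed at 0 under every alternative that gave a value, and so did the 12 subclasses together with nuclei matched on UMIs or thinned, and the channel partners in neurons. In astrocytes 1 member passed with a minimum of 30 UMIs and no CPM minimum, which was Cacna1b at 20.6 CPM in METH and 51.4 in saline on 24 and 59 UMIs. In oligodendrocytes the count of 1 became 0 at Leiden resolution 2, with edgeR 4.0.16 TMM scaling, with at least 1000 genes per nucleus, at no more than 1% mitochondrial UMIs, with matched nuclei and after thinning to 1000 UMIs. The cause was not tested, except that matching and thinning leave fewer UMIs. TMM scaling moved oligodendrocyte ratios by 0.18 and astrocyte ratios by 0.098 on the log2 scale. After thinning 16 of 29 members kept their highest subclass in both libraries. With at least 1000 genes per nucleus the endothelial and mural classes held too few nuclei to compare. Of the single-gene values under the alternatives, 3427 stayed within their counting interval or, for Scn1a in oligodendrocytes, past the size rule. Another 235 moved beyond the interval, and 6 (Scn1a in oligodendrocytes) no longer passed the size rule. The 3427 include 332 from the minimum of 30 UMIs and no CPM minimum, which cannot change a ratio. Of the 235, 141 came from thinning and 63 from matching. Intervals cover counting depth and leave out the spread between animals.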

Other observations

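A GABAergic cluster left without a name, led by Ndst4 with Meis2, Pbx3 and Meis1 among its top genes, held 199 METH nuclei and 1 saline nucleus, so its channel levels are given for the METH library only. Cacna2d1 stood at 1632 CPM there, above its level in each of the 5 METH interneuron subclasses. Cacna1d was at 1008 CPM, Cacna1e at 730, Cacna1a at 689, Cacna1b at 348, Cacna1c at 301 and Cacna2d3 at 244. Scn3b was at 223 CPM and Scn9a at 12.2, against 37.6 and 172 in METH Pvalb interneurons. With 1 saline nucleus, no comparison between the libraries was made for this cluster.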
